A study of Zea mays with 4 samples.

Results

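A set of 4 gene models for protein folding in the endoplasmic reticulum (ER) was followed in the young maize endosperm. They are both BiP chaperone genes, bip1 (GRMZM2G114793) and bip2 (GRMZM2G415007), the protein disulfide isomerase gene pdi1 (GRMZM2G091481) and the transcription factor gene bzip60 (GRMZM2G025812). They were taken by identifier, as 4 of the 110028 gene models in the files, by a rule that names no expression value, though earlier results of these data were known when they were chosen. All 4 were found in every library. The RefSeq gene table used for names lists bip1 and bip2 under those names and lists pdi1 as pdi and PDIL1-1. It gives no bzip60 name for GRMZM2G025812, so that name is a working name here.

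The tissue was the central starchy endosperm, which fills the inside of the kernel and later stores starch and protein. Kernels came from self-pollinated greenhouse plants of the maize inbred B73, collected at 6 days after pollination. The tissue was cut out by laser-capture microdissection, with its poly-A RNA amplified and sequenced as 4 libraries of 1 group, with no second tissue, stage or treatment. The labels do not say whether the replicates came from separate plants or ears, so the spread between libraries may be technical. The level of a gene is its RPM, its share of a library's counted reads scaled to 1000000.

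The ER lumen is where secreted and vacuolar proteins fold. BiP is the HSP70-type heat shock protein of the ER and holds unfolded chains, and protein disulfide isomerase forms and reshuffles disulfide bonds. In filling maize endosperm the ER also receives the zein storage proteins, and BiP is known for accumulating in floury mutants that make defective zeins. In maize and Arabidopsis, bZIP60 belongs to the unfolded protein response, in which the ER stress sensor IRE1 splices the bZIP60 message. Counts per gene model, as used here, do not separate the spliced from the unspliced message.

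The folding enzyme gene pdi1 was by far the most read of the 4. It had 1433, 1632, 1669 and 1226 RPM in replicates 1 to 4, a mean of 1490 ± 204 RPM (SD, n = 4), and ranked 42 among all gene models by mean RPM. Replicate 4 was lowest and replicate 3 highest, and the highest library stood 1.36-fold above the lowest. In rice, the PDIL1-1 enzyme is known for its part in sorting the storage protein glutelin.

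The chaperone gene bip1 was read at 166, 302, 269 and 204 RPM in replicates 1 to 4, a mean of 235 ± 61.6 RPM (SD, n = 4). Replicate 1 was lowest and replicate 2 highest, a 1.82-fold range, and 96.9% of the 21181 models detected at a mean of 1 RPM or more lay below its mean. Its paralog bip2 had 9.32, 25.1, 17.7 and 13.3 RPM, a mean of 16.3 ± 6.73 RPM (SD, n = 4). The libraries stood in the same order for both BiP genes, with replicate 1 lowest, then 4, 3 and 2, and the range of bip2 was 2.69-fold. This is not particular to the BiP pair, as pdi1 and bzip60 also shared an order, with replicate 4 lowest, then 1, 2 and 3. The share of all models with either order was not computed.

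The regulator gene bzip60 was the lowest of the 4. It had 5.24, 6.08, 8.83 and 3.65 RPM in replicates 1 to 4, a mean of 5.95 ± 2.17 RPM (SD, n = 4), which lay above 35.0% of detected models. These levels rest on 18, 33, 42 and 20 reads, so their exact 95% Poisson intervals are wide, from 2.23 to 5.64 RPM in replicate 4 and from 6.37 to 11.9 RPM in replicate 3. For bip2 the reads were 32, 136, 84 and 73, and for pdi1 4920 to 8857. Such intervals cover counting error only, since amplified reads are not independent molecules. In these tissue samples, fewer cells of a type and less RNA per cell cannot be told apart.

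**Figure D1:**
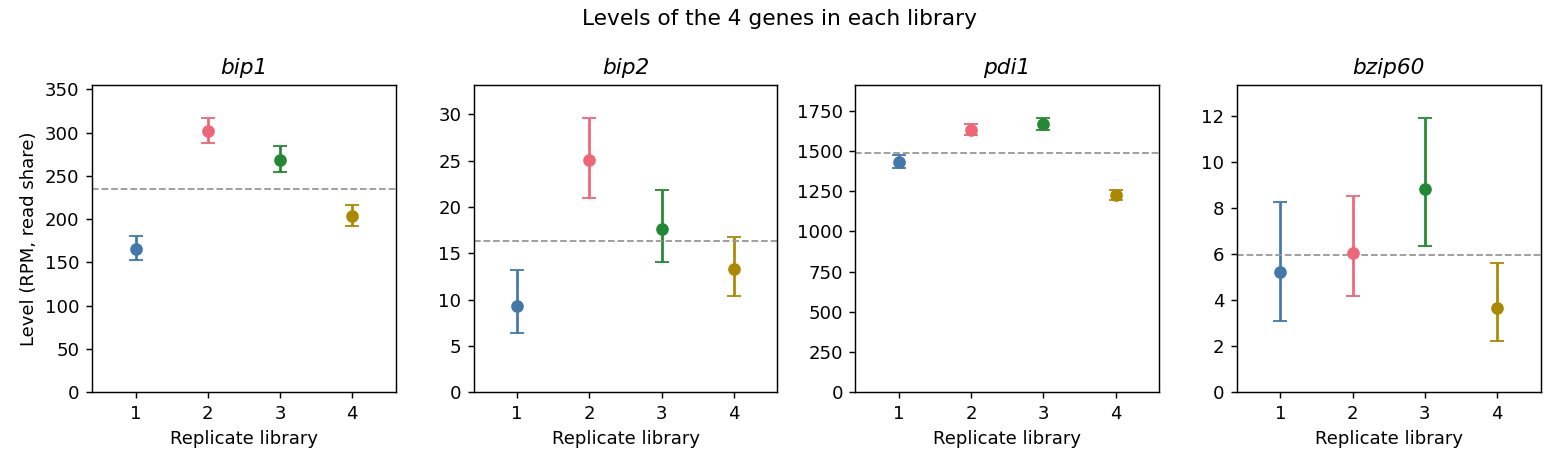
Level of each gene (RPM, linear axis from 0) in the 4 replicate libraries, with exact 95% Poisson intervals as bars and the mean as a dashed line. For all 4 genes the lowest library is replicate 1 or 4 and the highest is replicate 2 or 3, and the intervals are wide for bip2 and bzip60.

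The order pdi1, bip1, bip2, bzip60 held in 4 of 4 libraries, as an order of read shares. Transcript lengths were not used here, so a longer transcript yields more reads at equal abundance, and these ratios are not ratios of molecules. In read shares pdi1 exceeded bip1 by 8.65-fold in replicate 1 and by 5.40-, 6.21- and 6.01-fold in replicates 2 to 4. The mean log2 ratio of pdi1 over bip1, from log2(RPM + 0.5), was 2.69 ± 0.29 (SD, n = 4). That ratio was largest in replicate 1, the library with the lowest bip1, and a change of the ratio between libraries does not depend on length.

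Within the BiP pair, bip1 took 94.7%, 92.3%, 93.8% and 93.9% of the reads in replicates 1 to 4, a mean of 93.7 ± 0.975% (SD, n = 4). The exact 95% binomial interval was 92.6 to 96.3% in replicate 1 and 91.0 to 93.5% in replicate 2, so the lowest and the highest share overlapped within counting error. The pair is known to encode closely similar proteins, and how reads that match both genes were counted is not given in the sources used here. No other gene model had read numbers identical to those of any of the 4 genes.

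At the bottom of the order, bip2 exceeded bzip60 by 1.78-, 4.12-, 2.0- and 3.65-fold in replicates 1 to 4, with a mean log2 ratio of 1.36 ± 0.58 (SD, n = 4). In replicate 1 the Poisson intervals overlapped, at 6.38 to 13.2 RPM for bip2 and 3.11 to 8.29 RPM for bzip60, while over all libraries the ranges of the 2 genes did not overlap. The ratio of pdi1 over bzip60 ran from 189-fold in replicate 3 to 336-fold in replicate 4. All 6 ratios between members had 1 direction in 4 of 4 libraries. The exact sign-flip permutation test over libraries, two-sided, cannot go below p = 0.13 in this design, which is the value each of the 6 pairs gave, so none could pass 0.05.

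Levels differed between libraries beyond counting error for all 4 genes, as did 44.1% of the 16516 genes kept by edgeR's filter on low values. The test was a chi-square test of the reads recovered from the deposited signal against library sizes scaled by TMM, a trimmed mean of ratios between libraries, with Benjamini-Hochberg adjustment over all those genes. It compares these libraries and not conditions. The adjusted p was 4.9e-53 for pdi1, 6.3e-36 for bip1 and 3.0e-06 for bip2. The share of genes called was higher at higher levels. Among genes averaging at least 100 RPM, where pdi1 and bip1 lie, 85.7% were called, and between 10 and 100 RPM, where bip2 lies, 48.9%.

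The call for bzip60 was weak. Its chi-square adjusted p was 0.036, where 21.3% of genes at 1 to under 10 RPM were called. With no filter it was 0.066, where 20.6% of 37643 genes were called. It was 0.47 without replicate 3 and 0.24 without replicate 4, so the call rests on the high replicate 3 and the low replicate 4. The calls for bip1, bip2 and pdi1 held under every alternative tried, with the highest adjusted p at 0.021 for bip2 without replicate 2. Without replicate 4, which stood apart in other genes as well, 17.5% of all tested genes were called.

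In size, the spread of both BiP genes was above that of most genes at their level, and that of pdi1 and bzip60 was nearer the middle of their level. The SD of log2(RPM + 0.5) over the 4 libraries was 0.39 for bip1, above 93.1% of models with a mean of 100 RPM or more. For bip2 it was 0.59, above 95.1% of models at 10 to under 100 RPM. For pdi1 the SD was 0.20, above 63.9% of the models at 100 RPM or more, and without replicate 4 it was 0.12. For bzip60 it was 0.48, above 62.9% of models at 1 to under 10 RPM but above 91.7% of those at 10 RPM or more. The median SD over the 11272 models at 10 RPM or more was 0.22. From edgeR's fit over all kept genes, the biological coefficient of variation was 0.204 for bip1, 0.268 for bip2, 0.150 for pdi1 and 0.249 for bzip60, against a median of 0.176. These coefficients lay above 72.4%, 93.2%, 10.5% and 89.9% of kept genes, in that order and at any level.

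**Figure D2:**
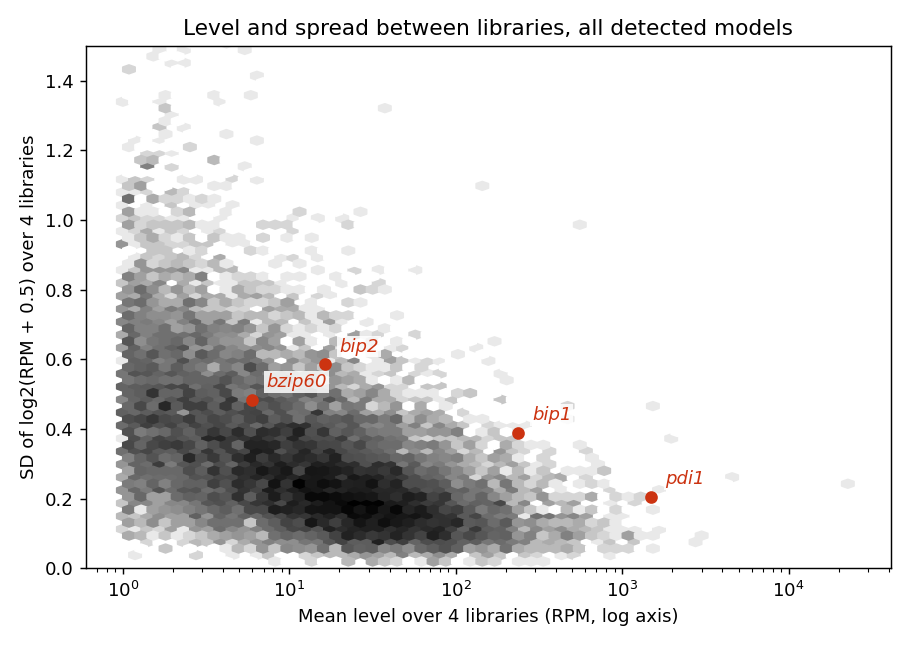
Mean level (RPM, log axis) against the SD of log2(RPM + 0.5) over the 4 libraries for the 21181 detected models, as shaded density, with the 4 genes as red points. Both BiP genes lie near the upper edge of the density at their level, with SDs of 0.39 and 0.59, and 125 models above an SD of 1.5 lie outside the axis.

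The 4 genes shared a coarse pattern of libraries and not a full order. Replicate 1 or 4 was lowest and replicate 2 or 3 highest in all 4 genes, and also in 39.1% of the 11272 models with a mean of 10 RPM or more. The profiles of both BiP genes lay close together. That of bip2 rests on 32 to 136 reads per library, and how reads that match both genes were counted is not given. The part of such reads in this likeness was not tested. Likeness was measured as the root mean square (RMS) difference of log2(RPM + 0.5), centred on each gene's mean, over the 4 libraries. Of 11271 models compared, 12 were nearer to bip2 than bip1 was, at an RMS difference of 0.19, and 222 were nearer to bip1 than bip2 was. From bip2, pdi1 lay at 0.42 and bzip60 at 0.50, against a median of 0.53 over all models.

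Among named genes, bip1 was the nearest to bip2, followed by RR10 at 0.22 and CFM3 at 0.23. The nearest to bip1 were thiolase1 at 0.08, CFM3 at 0.11 and RR10 at 0.11. Near pdi1 were TIFY23 at 0.01 and ASK2 at 0.02, but 757 models lay within 0.1 of pdi1, against 18 for bip1 and 1 for bip2. The nearest to bzip60 were SSE1 at 0.14, the ubiquitin gene MUB14 at 0.16 and mbd117 at 0.16. With 4 libraries this measure describes likeness of 4 values and nothing more.

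Other genes of the ER were placed beside the 4 by lists of gene names. Of 36 entries, 12 matched a RefSeq name, and with bzip60 they gave 28 models. All 28 averaged 1 RPM or more, compared with 19.3% of all gene models, and 25 averaged 10 RPM or more. The median of their mean levels was 61.6 RPM, also when the 4 genes were left out, against 11.5 RPM over all detected models. The lists hold only genes with a RefSeq name, apart from bzip60, while the 19.3% and the 11.5 RPM include models without one. The share detected among named models alone was not computed, so these comparisons do not single out ER genes. Together the 28 models had 3831, 4286, 4133 and 3457 RPM in replicates 1 to 4.

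The lectin chaperones calnexin and calreticulin, which hold glycoproteins while they fold, ordered the libraries differently from BiP. Calnexin (CNX) had 217, 201, 218 and 178 RPM, a mean of 203 ± 18.7 RPM (SD, n = 4), with an SD of log2 level of 0.14. Calreticulin (crt2) had 65.2, 79.4, 49.6 and 59.9 RPM, a mean of 63.5 ± 12.4 RPM (SD, n = 4), and was lowest in replicate 3, where bip1 was second highest. Of the reads of these 4 chaperone genes, bip1 took 36.3% in replicate 1 (exact 95% binomial interval 33.9 to 38.7%) and 49.7%, 48.5% and 44.9% in replicates 2 to 4. The interval of replicate 1 did not overlap the lowest of the others, 42.9 to 46.8% in replicate 4.

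In the protein disulfide isomerase family, pdi1 alone took close to as many reads as the other 14 models together. Its share was 49.2%, 51.2%, 53.8% and 47.4% in replicates 1 to 4, a mean of 50.4 ± 2.74% (SD, n = 4), and the family took 0.295 ± 0.0266% of all reads. The next models were PDIL5-1 (GRMZM2G443655) at 367 ± 37.8 RPM, pdi7 at 246 ± 10.1 RPM and pdi12 at 194 ± 19.4 RPM. In contrast to pdi1, which was lowest in replicate 4, PDIL5-1 was highest there at 420 RPM and lowest in replicate 3 at 335 RPM. The lowest of the 15 models, pdi10, lay between 9.67 and 12.96 RPM, and all 15 averaged 10 RPM or more.

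Of the family, pdi8 had the widest spread at 226, 253, 161 and 122 RPM, a 2.08-fold range, and pdi7 the narrowest at 1.10-fold. Next to pdi1 in name, pdi2 (PDIL1-2) had 165, 214, 179 and 137 RPM. Further models were pdi6 at 78.2 RPM, pdi3 at 69.5 RPM, the pdi4 models GRMZM2G034143 and GRMZM2G033829 at 34.9 and 19.5 RPM, and pdi5 at 24.2 RPM. The models PDIL5-3, PDIL5-1 (GRMZM2G073628) and pdi11 had 20.3, 15.3 and 14.1 RPM. RefSeq gives the names pdi4, PDIL5-1 and PDIL5-3 to a pair of models each. By the chi-square test 7 of the 15 differed between libraries, beside the 44.1% of all genes. At the levels of these 15 the shares called were higher, 48.9% of genes at 10 to under 100 RPM and 85.7% at 100 RPM or more. Without replicate 4, 4 of the 15 differed, namely pdi1, pdi2, pdi8 and pdi12, beside 17.5% of all genes in that fit.

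**Figure D3:**
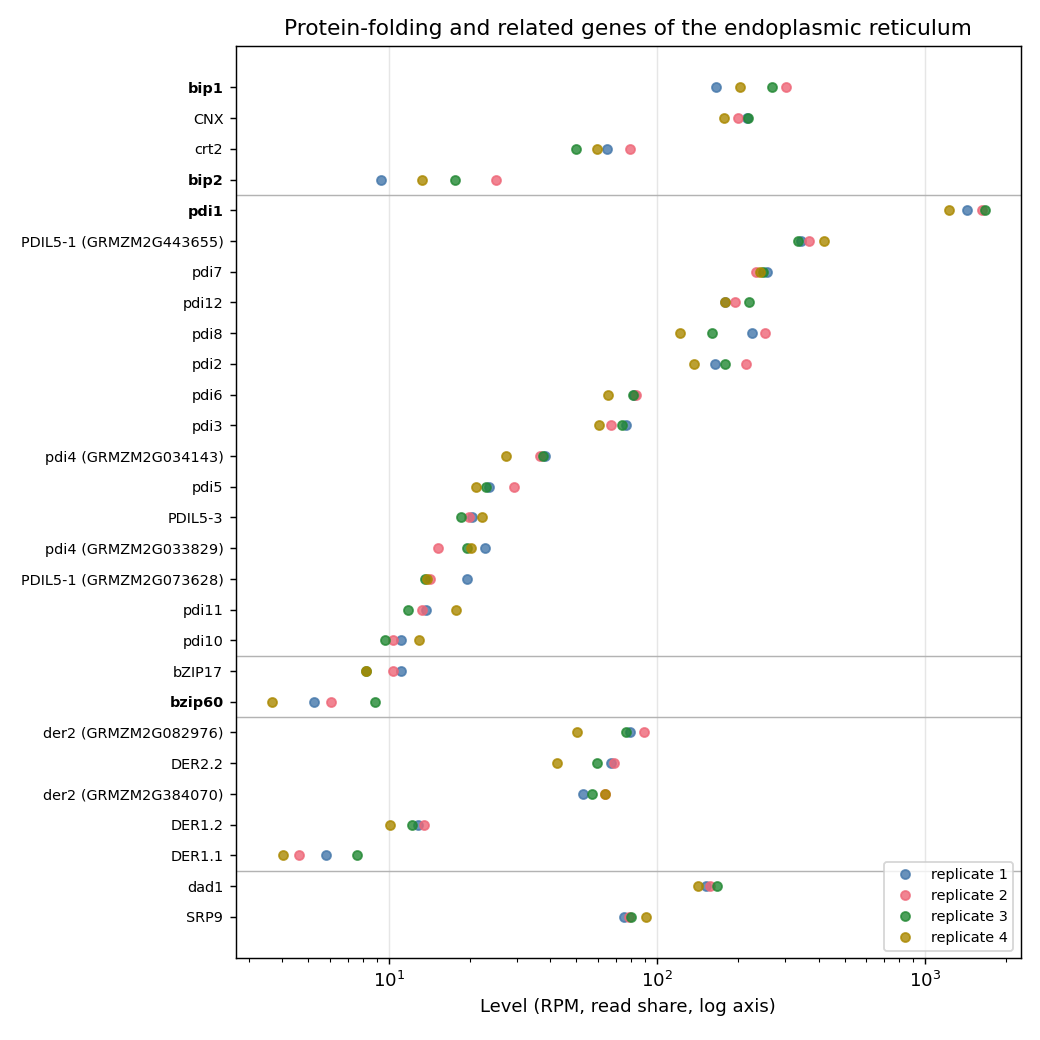
Level (RPM, log axis) of the 28 models of the ER lists in each replicate library, grouped from top to bottom as chaperones, the disulfide isomerase family, bZIP factors, derlins, and dad1 with SRP9, with the 4 genes of interest in bold. The gene pdi1 stands at 1226 to 1669 RPM, above every other model shown, and bip2 and bzip60 lie near the low end.

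Derlins, membrane proteins that act in the disposal of misfolded ER proteins, were read at levels below that of bip1. The der2 models GRMZM2G082976 and GRMZM2G384070 had 73.7 ± 16.6 and 59.3 ± 5.46 RPM (SD, n = 4), DER2.2 had 59.6 ± 12.3 RPM, DER1.2 12.1 ± 1.48 RPM and DER1.1 5.50 ± 1.57 RPM. Of these 5, 4 were lowest in replicate 4, as were 14 of all 28 models of the ER lists. The share of all genes lowest there was not computed. RPM uses unscaled totals, and the TMM factor of replicate 4 was 0.942, the lowest of the libraries. By the chi-square test 3 of the 5 derlins differed between libraries, beside 44.1% of all tested genes. The adjusted p was 2.9e-08 for der2 GRMZM2G082976, 3.4e-05 for DER2.2 and 0.042 for der2 GRMZM2G384070. DER1.1 and DER1.2 were not called (chi-square adjusted p = 0.18 and 0.78), at 20 to 36 and 44 to 73 reads per library. The gene dad1, a subunit of the enzyme that attaches N-glycans in the ER, had 154 ± 10.7 RPM. SRP9, a subunit of the particle that brings nascent chains to the ER, had 81.2 ± 6.56 RPM. The other bZIP gene on the list, bZIP17 (GRMZM2G103647), had 9.45 ± 1.47 RPM. Its level was above that of bzip60 in replicates 1, 2 and 4, at 11.1, 10.3 and 8.22 RPM, and below it in replicate 3, at 8.20 RPM.

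Of all 28 models 16 differed between libraries by the chi-square test, or 57.1%, beside 44.1% of all tested genes, and 12 of the 24 models other than the 4 genes did. The 44.1% is not matched for level. As 25 of the 28 averaged 10 RPM or more, the shares at their levels are mostly higher. These were 48.9% of genes at 10 to under 100 RPM and 85.7% at 100 RPM or more, so 57.1% does not mark these models as more variable. Without replicate 4 the count fell to 7 of 28, or bip1, bip2, pdi1, crt2, pdi2, pdi8 and pdi12, beside the 17.5% of all genes tested without it. The models that did not pass included dad1, bZIP17, DER1.1 and DER1.2.

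**Figure D4:**
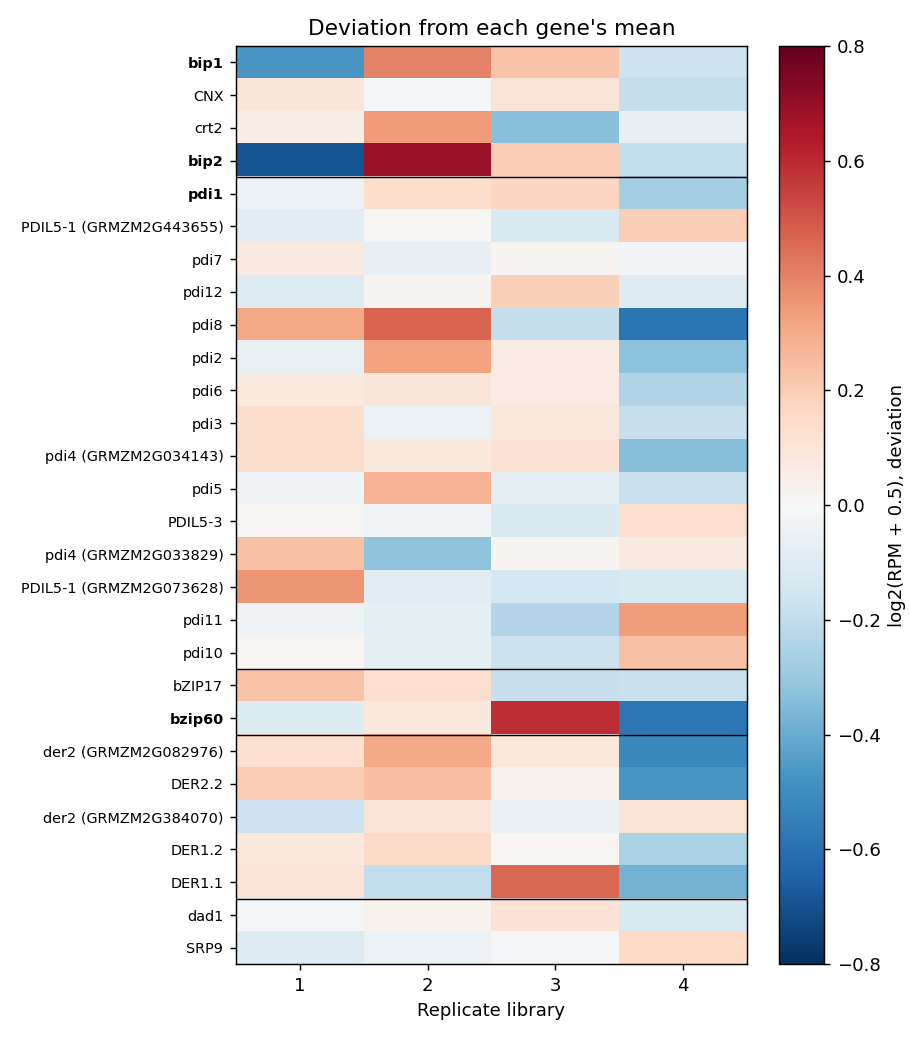
Deviation of log2(RPM + 0.5) from each gene's mean over the 4 libraries (colour, blue below and red above), for the same 28 models in the same groups, with the 4 genes of interest in bold. Both BiP genes are low in replicate 1 and high in replicate 2, while calnexin stays close to its mean, with an SD of 0.14.

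Zein genes, whose products fold in this ER later in development, were almost unread. Of 30 models with zein names, 28 were at 0 in every library, and the summed level was 0.583, 0.184, 0.631 and 4.02 RPM in replicates 1 to 4. The highest was gz27 at 0.583, 0.184, 0.631 and 3.83 RPM. A level of 0 reads allows up to 0.548 to 0.874 RPM per library, the level of 3 reads. Alpha-zein genes, most of this list, are near-identical copies, and how reads that match several of them were counted is not stated. The gamma-zein gene gz50, which is not of that family, was also at 0. The summed zein level was highest in replicate 4, where gz27 had 21 reads, against 2, 1 and 3 reads in replicates 1 to 3. Of the 28 models of the ER lists, 14 were lowest in replicate 4, pdi1 and bzip60 among them. A relation between zein and ER gene levels was not tested.

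Libraries held 3432952 to 5477465 reads. Markers of some neighbouring cell types differed between them, which touches every comparison of libraries above. Markers of the basal transfer layer, the part that draws nutrients from the mother plant, all averaged 1 RPM or more (10 of 10) and summed to 311, 635, 536 and 68.8 RPM in replicates 1 to 4, led by betl2 (also named bap2). Of these 10 models, 9 were lowest in replicate 4 and 1 was highest there. Embryo-surrounding markers, 4 of 5 averaging 1 RPM or more, summed to 42.8, 45.5, 32.6 and 2.01 RPM, led by ESR1. The aleurone list (4 of 6 detected, led by sal1, then dek1, cr4 and vpp1, with c1 and r1 at 0) summed to 109 to 135 RPM. Whether the 4 detected are restricted to the aleurone was not tested. Embryo markers (2 of 8 detected, led by ole1) summed to 25.6, 26.3, 32.0 and 46.6 RPM in replicates 1 to 4. Among models that passed the filter, the chi-square test called 1 of 4 on the aleurone list and 2 of 2 on the embryo list. It called 1 of 1 for maternal and green tissue, 3 of 4 for starchy endosperm and 3 of 4 for the transfer layer. No embryo-surrounding marker passed the filter. Of all tested genes 44.1% were called, a share not matched for level. Of 6 genes of maternal and green tissue only ppdk1, which endosperm also transcribes, was detected. That list summed to 1055, 1151, 918 and 552 RPM in replicates 1 to 4. Starchy endosperm markers had 5 of 13 models detected, led by ae1, with wx1 and o2 at 0 in every library. They summed to 369, 343, 392 and 494 RPM. Of the 5 detected, ae1, du1, Nkd1 and Nkd2 were highest in replicate 4 and PBF was lowest there. Nkd1, chosen after its values were seen, had 44.0, 44.8, 69.6 and 105 RPM. The sum is thus not a measure of how much starchy endosperm a library held. The transfer-layer sum was highest in replicates 2 and then 3, as both BiP genes were, and lowest in replicate 4, where pdi1 and bzip60 were also lowest. The order of the BiP genes differed from it in which of replicates 1 and 4 was lowest. The part of these cells in the differences between libraries was not tested.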

How the data were processed

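Poly-A RNA of 4 replicate libraries of B73 central starchy endosperm at 6 DAP was measured. The authors deposited a scaled signal per gene model, and bedtools is named in the submitters' processing notes without role or version. Which aligner, build, gene annotation and strand option were used is not given in the sources used here. Every library's signal summed to 4773346, and each value above 0 was a whole multiple of the lowest one (tolerance 0.01 of a read), so dividing by that step gave reads (100% whole). The step in replicate 3 was 1.004, and its deposited values were not rounded to whole numbers, for example 42.16 for the 42 reads of bzip60. Tests are also reported without that replicate.

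RPM, log2(RPM + 0.5) and SDs were computed from these reads with Python 3.11.15. TMM sizes, the filter and coefficients of variation came from edgeR 4.0.16, and alternative size factors from DESeq2 1.42.0. The chi-square test had 3 degrees of freedom and a threshold of 0.05 on the adjusted p, and it was tested on simulated data. The noise in those data was Poisson counting error alone, so they do not cover further spread between libraries. The planned division by coding length was not possible without a table of lengths, so differences between members are read shares.

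Members and lists were chosen with earlier results of these data known. Named genes are the 4 members, all matched ER genes, the 3 named genes nearest in profile to each member and the highest member of each other list, of which 1 gene is not reported here. The 3 models named CNX5 were left out for their molybdenum cofactor names. Names came from RefSeq (Zm-B73-REFERENCE-NAM-5.0), which matched 18786 of the 110028 models.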

Additional observations from a re-analysis of the deposited data

Results flagged for a closer look

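Among 34 sets of 4 libraries examined (28 models of the ER lists and 6 ratios between members), 3 had 1 library far from the others by Dixon's test at its 95% critical value. Chance gives about 1 in 20. None was among the 4 genes or their ratios. The isomerase gene pdi6 had 65.7 RPM in replicate 4 and 81.6 to 83.5 RPM in the others. The pdi4 model GRMZM2G034143 had 27.2 RPM in replicate 4 and 36.7 to 38.2 RPM in the others. The PDIL5-1 model GRMZM2G073628 had 19.5 RPM in replicate 1 and 13.7 to 14.2 RPM in the others. By the chi-square test none of these 3 models differed between libraries beyond counting error (adjusted p = 0.19, 0.14 and 0.23, in that order).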

How the results depend on the processing

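Mean levels moved by less than 1 SD under TMM sizes, DESeq2 size factors and each left-out replicate, and all 6 ratios between members kept their direction under each pseudocount and left-out replicate. The call for bzip60 was lost with no filter (adjusted p = 0.066), and with no filter and without replicate 3, an alternative chosen after seeing the data (0.58), and ranged from 0.017 to 0.47 over left-out replicates. Leaving out single replicates gave an SD of log2 level of 0.12 to 0.25 for pdi1. Genes called between libraries numbered 2965 to 6863 over left-out replicates, against 7289. For the ER lists the called models numbered 7 to 15 against 16, and 10 with no filter and without replicate 3, and for the isomerase family 4 to 7 against 7. In each of these the lowest count, and the lowest SD of pdi1, came without replicate 4. The cause was not tested. The alternative without division by length was not run, since no lengths were used. No paired analysis was possible because there is 1 group. Depth limits bzip60 most, at 18 to 42 reads per library.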

Other observations

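Chaperone genes outside the ER lists were read at a wide range of levels. Of 14 models with heat shock names, 10 averaged 1 RPM or more and 1 was at 0 in every library. The highest was hsp70-4 (GRMZM2G340251), by name of the same family as BiP, at 842, 1199, 1967 and 1366 RPM in replicates 1 to 4, a 2.34-fold range. It was lowest in replicate 1, as bip1 and bip2 were, but highest in replicate 3. The list summed to 1985, 2532, 3240 and 2640 RPM. Among its members chosen after their values were seen, hsp18f had 42.2 RPM in replicate 4 and 9.04 to 13.6 RPM in the others, and HSP90-2 had 574 ± 42.9 RPM (SD, n = 4).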
